A study of Mus musculus with 4 samples.

Results

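Fabp1, Fabp2, Fabp4, Fabp5 and Fabp7 encode 5 of the fatty acid binding proteins, and they were described here as 5 of the 32285 genes in single-cell libraries of mouse liver. They were taken by gene symbol in every cell with at least 500 UMIs (unique molecular identifiers, 1 per captured RNA molecule), at least 300 genes and at most 15% mitochondrial UMIs. All 5 passed as detected, with 328982 UMIs between them in 70047 cells kept after doublet removal. The series compared livers of mice with a fatty liver disease model and of healthy mice, with 1 library per diet and week. Male C57BL/6J mice entered at 8 weeks of age. The MASH groups received the FAT-MASH regimen for 12 or 24 weeks, which combines a Western diet, drinking water with fructose and glucose, and a low dose of the liver toxin carbon tetrachloride injected weekly into the abdomen. MASH stands for metabolic dysfunction-associated steatohepatitis. The chow groups received regular chow for the same times, and the labels give no injection for them, so diet, sugar and toxin cannot be told apart. All livers were kept on ice overnight, digested with collagenase and DNase, and passed over a Percoll gradient that removes most hepatocytes, before 10x Genomics 5′ libraries were made.

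The proteins are small cytosolic carriers that bind long-chain fatty acids and other lipids and move them between membranes, lipid droplets, mitochondria and nuclear receptors. Fabp1 is the liver type, abundant in hepatocytes, and Fabp2 the intestinal type of the enterocyte. Fabp4 is the adipocyte type and is also made by capillary endothelium and macrophages, Fabp5 is the epidermal type found in skin, endothelium and macrophages, and Fabp7 is the brain type of radial glia that has also been described in mouse Kupffer cells, the resident macrophages of the liver. Fabp1 and Fabp2 are targets of the fatty acid receptor PPARalpha in mouse, while Fabp4 is a classical target of PPARgamma.

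On GRCm38, with GENCODE M21 annotation, Fabp1 (ENSMUSG00000054422) lies on the plus strand at chr6:71199827-71205023. Fabp2 (ENSMUSG00000023057), Fabp4 (ENSMUSG00000062515) and Fabp5 (ENSMUSG00000027533) share chromosome 3, at chr3:122895072-122899506 on the plus strand, chr3:10204088-10208576 on the minus strand and chr3:10012548-10016607 on the plus strand. Fabp7 (ENSMUSG00000019874) lies on the plus strand at chr10:57784881-57788450. All are annotated as protein coding. The promoters of Fabp1 and Fabp2 are shown because both genes were mostly counted in hepatocyte-like cells and yet differed in how far the diets lay apart, and that of Fabp7 because its UMIs came mostly from macrophages. Each run is the 250 bases before the RefSeq start on GRCm38.p6, 5′ to 3′, from 3 of the 5 genes. Capitals mark matches on either strand to a pair of motifs. The first is TATAAA, the core of a TATA box. The other is AGGTCA, a unit of nuclear receptor sites, which in these windows was matched in its reverse complement.
Fabp1 promoter, chr6:71199629-71199878, plus strand: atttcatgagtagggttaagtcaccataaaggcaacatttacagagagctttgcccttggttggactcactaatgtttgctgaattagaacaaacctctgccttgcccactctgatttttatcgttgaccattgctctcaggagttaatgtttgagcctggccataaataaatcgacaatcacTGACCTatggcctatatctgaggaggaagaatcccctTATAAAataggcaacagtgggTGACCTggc
Fabp2 promoter, chr3:122894822-122895071, plus strand: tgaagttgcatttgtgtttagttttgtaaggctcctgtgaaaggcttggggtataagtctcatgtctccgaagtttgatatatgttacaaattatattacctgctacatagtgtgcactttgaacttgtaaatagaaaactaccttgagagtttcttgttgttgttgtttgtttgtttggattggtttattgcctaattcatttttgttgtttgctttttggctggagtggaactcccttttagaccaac
Fabp7 promoter, chr10:57784673-57784922, plus strand: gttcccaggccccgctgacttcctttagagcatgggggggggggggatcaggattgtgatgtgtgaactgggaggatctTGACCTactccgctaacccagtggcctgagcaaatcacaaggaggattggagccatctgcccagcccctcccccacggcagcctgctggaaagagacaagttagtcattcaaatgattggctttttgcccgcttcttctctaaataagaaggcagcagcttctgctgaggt

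The Fabp1 window held TATAAA with its first base 30 bases before the start, and the reverse complement of the receptor unit at 67 and 9 bases before it. The Fabp7 window held the same letters at 171 bases before its start, and the Fabp2 window held neither motif. The matches did not overlap each other. Of 32851 windows of the same length from 27025 genes, 12.4% held the TATA box letters and 14% the receptor unit, in either orientation.

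The 4 libraries held 15134 cells (12-week MASH), 16104 (12-week chow), 17476 (24-week MASH) and 21333 (24-week chow), with medians of 3068, 1973, 3166 and 2065 UMIs, so MASH cells were deeper. Levels are given as CPM, the UMIs of a gene per 1000000 UMIs of all genes, summed over the cells of a class within 1 library. No group had a second library, so no p-value was computed. The 95% intervals take in only the error of counting, so a difference beyond them is between single libraries and need not hold between diets. Cells also carried hashtags, antibody barcodes added to cells before pooling (3 in each 12-week and 8 in each 24-week library). What each hashtag stands for is not in the labels, so values by hashtag show the spread inside a library and are no replicates. Pairs of libraries shared 507 to 796 listed barcodes. Classes are called X-like because they were named from marker genes, and the 5 genes were kept out of the clustering.

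The genes differed in where they were counted, though some shared a main source. Hepatocyte-like cells, led by Gnmt and Car3, held 83.7% and 90.8% of all Fabp1 UMIs in the 12- and 24-week MASH libraries, and 88.6% and 89.7% in the chow libraries of those weeks. For Fabp2 the hepatocyte-like share was 82.4% and 89.7% in MASH and 89.3% and 86.6% in chow. Fabp4 was counted mostly in endothelium. Sinusoidal endothelial-like cells, which line the liver's own capillaries, held 48.2% and 29.5% of its UMIs in MASH and 60.7% and 50.1% in chow. Fabp5 was spread more widely. In 12-week MASH, sinusoidal cells held 29.5% and monocyte-like cells 23.6% of it, while in 24-week MASH macrophages led by genes of complement C1q (C1qb, C1qc, C1qa) held 35.2%. In chow, sinusoidal cells held 48.0% and 21.0% and hepatocyte-like cells 19.6% and 27.9%. Fabp7 was scarce, with 475 and 335 UMIs in the MASH libraries and 8 and 2 in the chow libraries, and the C1q macrophages held 73.7% and 84.5% of the MASH UMIs.

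**Figure D1:**
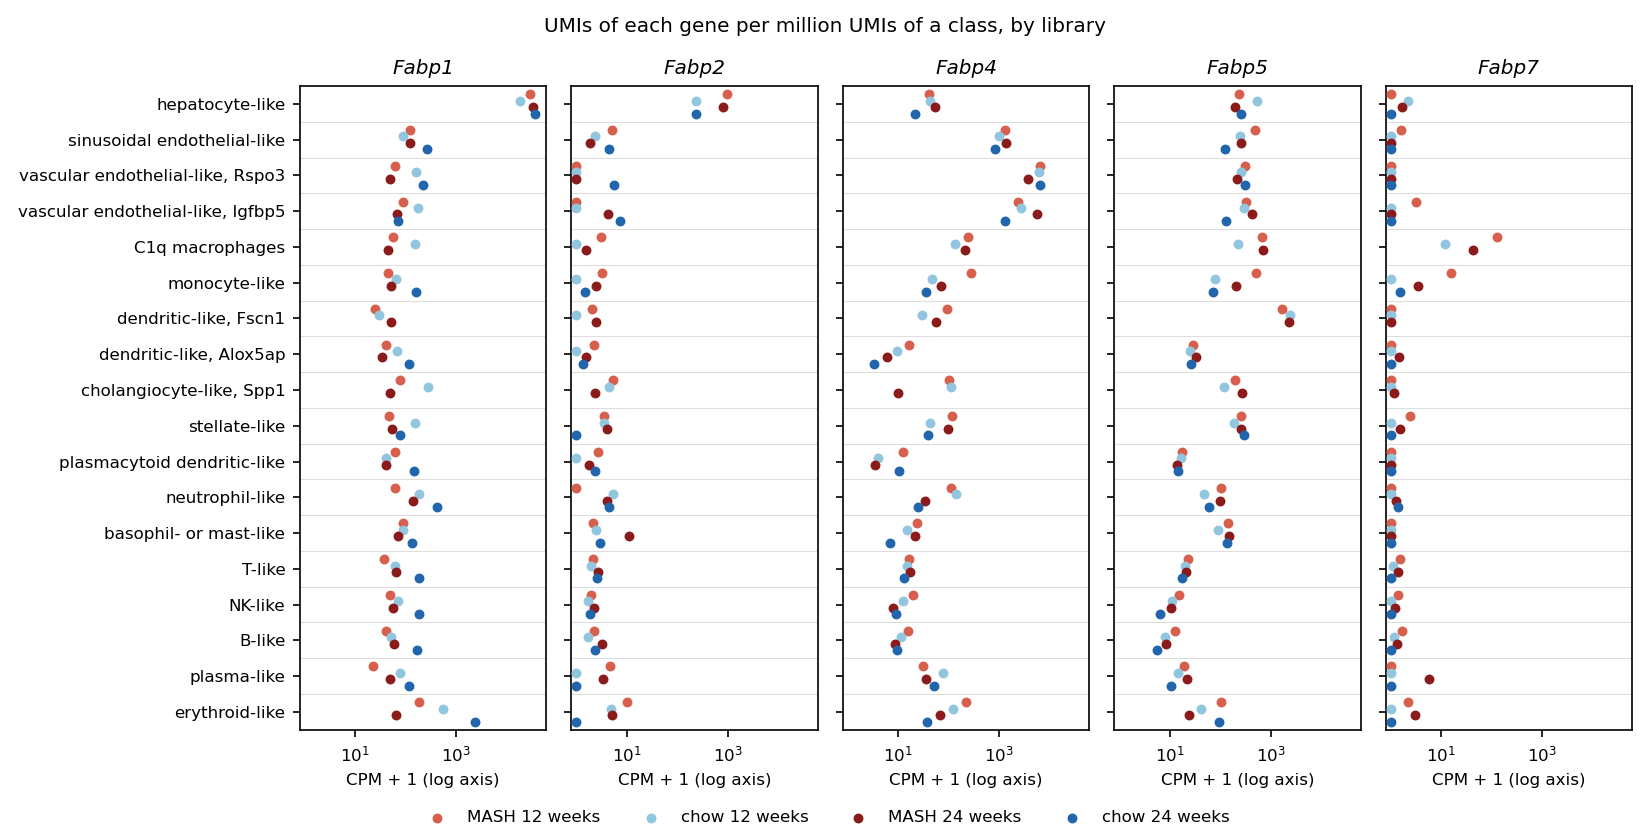
CPM of the 5 genes (columns; horizontal log axis of CPM + 1) in 18 classes of cells (vertical axis), 1 point per library with at least 20 cells of that class. Fabp1 and Fabp2 peak in hepatocyte-like cells, Fabp4 in endothelium and Fabp7 in the C1q macrophages, while Fabp5 is high in several classes.

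Ordered by the mean over libraries, Fabp1 stood at 29133 CPM in hepatocyte-like cells (18600 to 36155), followed by erythroid-like cells at 785 (64.2 to 2365) and neutrophil-like cells at 197, whose ranges overlapped. The erythroid-like value of 2365 CPM came from 40 cells of 24-week chow. Fabp2 stood at 561 CPM in hepatocyte-like cells, with erythroid-like cells next at 4.32. Fabp4 reached 5720 CPM in vascular endothelial-like cells led by Rspo3 (3772 to 6443), then 2969 in those led by Igfbp5 (1272 to 5521) and 1110 in sinusoidal cells (813 to 1339). The ranges of the 2 vascular classes overlapped, and the Igfbp5 range also overlapped the sinusoidal one. The highest Fabp5 level was 2093 CPM in dendritic-like cells led by Fscn1 and Ccr7, genes of migratory dendritic cells, above every library value of the C1q macrophages (mean 536, 222 to 701). Below these, 6 classes lay between 216 and 307 CPM of Fabp5 and did not separate beyond their ranges. Fabp7 averaged 58.5 CPM in C1q macrophages and 4.39 in monocyte-like cells.

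The first question was how the liver type genes differed with diet in hepatocyte-like cells, of which the gradient left 424 (12-week MASH), 1344 (12-week chow), 612 (24-week MASH) and 1951 (24-week chow). They were shallow, with medians of 965, 830, 1408 and 1009 UMIs. Fabp2, the intestinal type, was higher in MASH at both weeks. It reached 966 CPM in 12-week MASH, against 238 CPM in 12-week chow, a ratio of 4.06 (3.58 to 4.60) from 695 and 400 UMIs. At 24 weeks it was 810 CPM in MASH against 228 CPM in chow, a ratio of 3.55 (3.23 to 3.90) from 1267 and 669 UMIs. By hashtag, Fabp2 lay between 528 and 1286 CPM in 12-week MASH (median 1044) and between 237 and 270 in 12-week chow (median 255). At 24 weeks the hashtags spanned 670 to 976 CPM in MASH (median 810) and 143 to 420 in chow (median 221). The ranges did not overlap at either week, although single hashtags were assigned to only 196 cells in 12-week MASH, 433 in 12-week chow, 282 in 24-week MASH and 613 in 24-week chow.

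More hepatocyte-like cells carried Fabp2 in MASH. After every cell was thinned to 1000 UMIs, 59.4% of 202 cells in 12-week MASH had a Fabp2 UMI, against 19.5% of 508 in 12-week chow. At 24 weeks the thinned shares were 52.3% of 407 cells in MASH and 18.7% of 982 in chow. Shallower cells were left out, 222 in MASH and 836 in chow at 12 weeks and 205 in MASH and 969 in chow at 24 weeks. Without thinning the shares were 60.6% in MASH against 22.3% in chow at 12 weeks, and 65.5% in MASH against 24.9% in chow at 24 weeks. In T-like cells, which should lack the gene, the thinned Fabp2 share was 0.121% in MASH and 0.0693% in chow at 12 weeks, and 0.118% in MASH and 0.219% in chow at 24 weeks, at median depths of 3416, 2651, 3260 and 2712 UMIs in that order. Fabp2 was therefore counted in hepatocyte-like cells far above that background. Set against Fabp1 in the same cells, there were 3.35 Fabp2 UMIs per 100 Fabp1 UMIs in 12-week MASH and 1.28 in 12-week chow, and 2.46 in 24-week MASH and 0.632 in 24-week chow.

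**Figure D2:**
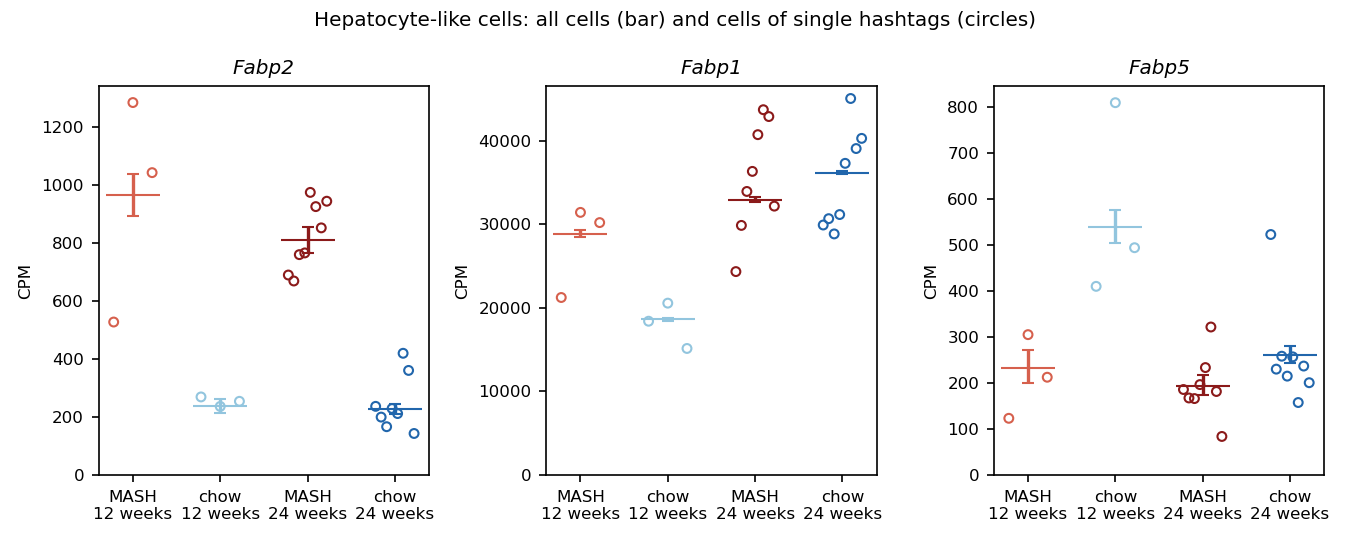
CPM (vertical axis, from 0) of Fabp2, Fabp1 and Fabp5 in hepatocyte-like cells of each library. Bars with 95% Poisson intervals give all cells of the class and circles the cells of single hashtags; the Fabp2 circles of MASH lie above all those of chow at both weeks, and those of Fabp1 overlap at 24 weeks.

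Fabp1, the liver type, differed far less. It was 28869 CPM in 12-week MASH against 18600 CPM in 12-week chow, a ratio of 1.55 (1.53 to 1.58), and 32907 CPM in 24-week MASH against 36155 CPM in 24-week chow, a ratio of 0.910 (0.901 to 0.920). By hashtag the ranges at 12 weeks were 21227 to 31405 CPM in MASH and 15133 to 20552 in chow, without overlap, and at 24 weeks 24326 to 43683 in MASH and 28831 to 45024 in chow, with overlap. The 24-week direction did not hold under other settings: the ratio was 1.08 with no doublet removal and 1.10 among single-hashtag cells. The direction at 12 weeks depended on the yardstick. Per 100 UMIs of 15 other hepatocyte genes (Alb, Apoa1, Ttr and the like), Fabp1 had 72.7 UMIs (71.4 to 74.1) in 12-week MASH against 95.8 (94.3 to 97.3) in 12-week chow, and 124 (123 to 126) in 24-week MASH against 144 (143 to 146) in 24-week chow. The 15 genes themselves made up 39690 CPM in 12-week MASH and 19418 CPM in 12-week chow, but 26499 CPM in 24-week MASH and 25035 CPM in 24-week chow. Between weeks, Fabp1 in hepatocyte-like cells was 1.14 times as high at 24 as at 12 weeks in MASH and 1.94 times in chow, while Fabp2 had ratios of 0.838 in MASH and 0.959 in chow.

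Fabp5, the epidermal type, was lower in hepatocyte-like cells of MASH at 12 weeks. It was 234 CPM in MASH against 539 CPM in chow, a ratio of 0.433 (0.365 to 0.511), with hashtag ranges of 123 to 305 CPM in MASH and 410 to 810 in chow. At 24 weeks it was 194 CPM in MASH against 261 CPM in chow, a ratio of 0.744 (0.649 to 0.851), and the hashtag ranges of 83.9 to 322 CPM in MASH and 158 to 523 in chow overlapped. The 24-week ratio was 0.984 with no doublet removal, and averaging over cells gave 0.612 at 12 weeks. The thinned share of cells with Fabp5 was 20.8% in 12-week MASH and 35.2% in 12-week chow, and 15.5% in 24-week MASH and 18.3% in 24-week chow, against 1.56% to 2.15% in T-like cells. Barcodes with 100 to under 300 UMIs, too few for a cell and present only in the 12-week MASH matrix, carried Fabp5 at 123 CPM, against 234 CPM in hepatocyte-like cells of that library. The part of free RNA in the Fabp5 ratio was not tested.

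Fabp4 in hepatocyte-like cells was 38.9 CPM in 12-week MASH and 41.1 CPM in 12-week chow, below the 190 CPM of the few-UMI barcodes. At 24 weeks it was 51.8 CPM in MASH and 20.5 CPM in chow, a ratio of 2.53 (1.79 to 3.59), but its 81 UMIs in MASH came from 21 of 612 cells and the hashtag ranges of 0 to 39.3 CPM in MASH and 3.77 to 35.0 in chow overlapped. Of the 4 members with at least 20 UMIs over both libraries, 1 was higher and 1 lower in MASH by 2-fold or more at 12 weeks, where 6.04% of 7877 genes were higher and 4.95% lower. At 24 weeks 2 of 4 were higher and 0 lower, where 8.5% of 9017 genes were higher and 3.37% lower. The median log2 ratio over all those genes was 0.02 at 12 weeks and 0.19 at 24 weeks.

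Genes that work around the carriers were read from lists. Of 13 counted fatty acid receptor and PPAR target genes, 5 were at least 2-fold higher in MASH hepatocyte-like cells at 12 weeks and 7 at 24 weeks, and 0 were lower, with median log2 ratios of 0.79 and 1.31. Cpt1a, which lets fatty acids into mitochondria, had ratios of 5.06 and 4.23. Acot1, a thioesterase that frees fatty acids from coenzyme A, had 3.26 and 4.16. Pdk4, a kinase that turns off pyruvate dehydrogenase, had 2.34 (0.919 to 5.94) and 10.8 (3.68 to 42.8), from 11 UMIs in each diet at 12 weeks and from 23 in MASH and 4 in chow at 24 weeks. Of the uptake genes, 2 of 4 were higher and 1 lower at 12 weeks, and 4 of 7 higher and 0 lower at 24 weeks. These included the fatty acid transporter Slc27a2 (2.83 and 2.14) and the hepatic lipase gene Lipc (3.16 and 3.04). Of the lipid droplet genes, 2 of 10 and 6 of 12 were higher and 0 lower, among them the monoglyceride lipase gene Mgll (2.34 and 4.47) and the lysosomal lipase gene Lipa (7.91 and 2.94). Of 8 acyl-CoA genes, 2 were higher at each week, Acot9 (2.12 and 3.28) and Acsl1 (2.53 and 2.15), and 1 was lower at 12 weeks. Hepatocyte genes at large differed as well: of the 15 listed, 8 were higher and 0 lower at 12 weeks, and 2 higher and 3 lower at 24 weeks, led by Hp (5.43 and 2.27). The part of this wider difference in the 12-week ratios of Fabp1 and Fabp2 was not tested.

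Fabp1 is not known as a lymphocyte gene, but it was counted in lymphocytes of every library. In T-like cells it was 36.0 CPM in 12-week MASH against 59.1 CPM in 12-week chow (ratio 0.608), and 62.7 CPM in 24-week MASH against 182 CPM in 24-week chow (0.345). In B-like cells the ratios were 0.794 and 0.336 and in NK-like cells 0.70 and 0.305, so lymphocytes of 3 kinds gave like values. The share of T-like cells with a Fabp1 UMI was 9.14% in 12-week MASH and 9.95% in 12-week chow, and 14.1% in 24-week MASH and 28.9% in 24-week chow. Thinned to 1000 UMIs these shares were 3.28%, 4.78%, 5.64% and 14.4%, in that order. In hepatocyte-like cells 99.8% to 100% of thinned cells had a Fabp1 UMI.

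The proportion of Fabp1 to other hepatocyte transcripts was not the same in lymphocytes and in hepatocyte-like cells. T-like cells had 21.7 and 32.2 Fabp1 UMIs per 100 UMIs of the hepatocyte list in 12- and 24-week MASH, and 32.1 and 66.6 in chow of those weeks, well under the values in hepatocyte-like cells. B-like cells (21.4 and 29.4 in MASH, 27.2 and 55.3 in chow) and NK-like cells (24.1 and 28.7 in MASH, 30.8 and 63.1 in chow) lay near the T-like values. Few-UMI barcodes of 12-week MASH had 22.3 (21.6 to 22.9, from 4982 Fabp1 UMIs in 49566 barcodes), next to the lymphocytes of that library. Sinusoidal cells had 31.9 and 38.8 in MASH and 37.1 and 67.3 in chow. The source of Fabp1 UMIs in lymphocytes was not tested, and few-UMI barcodes were at hand for 12-week MASH only. Fabp1 in sinusoidal cells was 120 CPM in 12-week MASH and 88.2 CPM in 12-week chow, and 117 CPM in 24-week MASH and 263 CPM in 24-week chow (0.446), above the T-like level in every library. Rspo3 vascular cells had ratios of 0.380 and 0.226, and monocyte-like cells 0.321 at 24 weeks (50.6 CPM in MASH, 158 CPM in chow), beside 0.305 to 0.345 in 24-week lymphocytes. Nor was it tested whether these cells made Fabp1 or carried hepatocyte RNA. The erythroid-like values of 64.2 CPM in 24-week MASH and 2365 CPM in 24-week chow lay at and far above the T-like levels of 62.7 and 182 CPM. The 40 erythroid-like cells of 24-week chow also held Alb at 1007 CPM. They had 86.9 Fabp1 UMIs per 100 UMIs of the hepatocyte list, and the source of these UMIs was not tested.

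**Figure D3:**
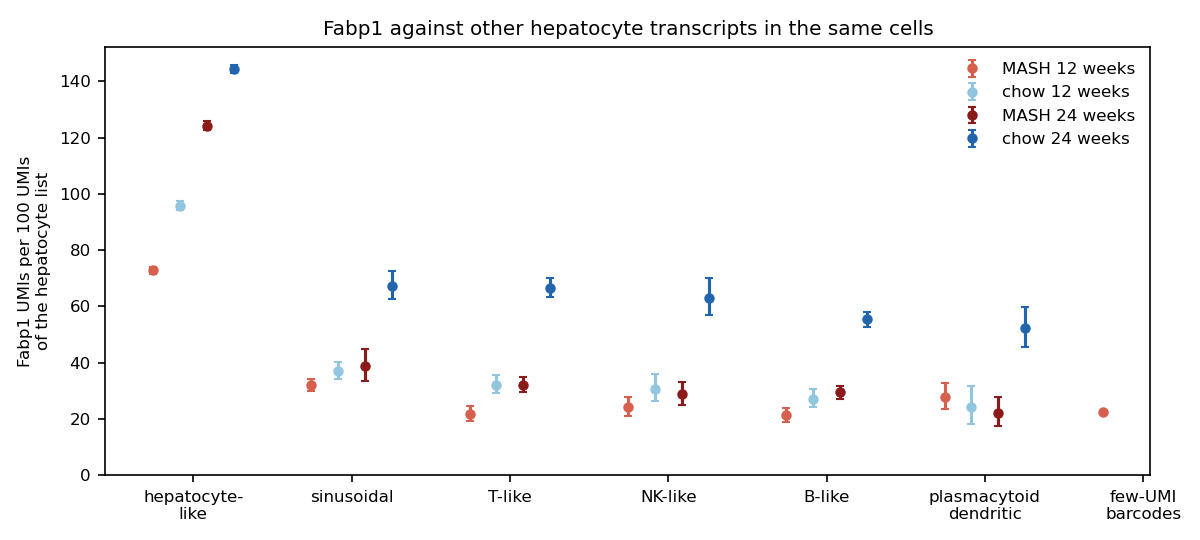
Fabp1 UMIs per 100 UMIs of 15 other hepatocyte genes (vertical axis, from 0) in hepatocyte-like, sinusoidal, T-like, NK-like, B-like and plasmacytoid dendritic-like cells of each library, and in barcodes with 100 to under 300 UMIs of the 12-week MASH matrix. Bars are 95% intervals for counting error; hepatocyte-like cells stand above the other classes of their own library, and those other classes have their highest values in 24-week chow.

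The next question was how Fabp4, the carrier of capillary endothelium, differed with diet among endothelial cells. It did so unevenly. In vascular endothelial-like cells led by Rspo3, a signal of central veins, it was 6407 CPM in 12-week MASH against 6258 CPM in 12-week chow, a ratio of 1.02 (0.982 to 1.07). At 24 weeks it was 3772 CPM in MASH against 6443 CPM in chow, a ratio of 0.585 (0.553 to 0.620). The 24-week MASH library stood below the other libraries, which lay close together. The class had 203 cells in 12-week MASH, 217 in 12-week chow, 96 in 24-week MASH and 139 in 24-week chow. By hashtag, 24-week MASH gave 1 value, 4772 CPM from 10 cells, and 24-week chow 3 values between 6507 and 6563 CPM. Nearly all cells carried the gene: the thinned share was 96.0% in 12-week MASH and 98.1% in 12-week chow, and 92.7% in 24-week MASH and 96.2% in 24-week chow, against 1.07% to 1.78% in T-like cells.

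In the vascular cells led by Igfbp5, Timp3 and Mmrn1, Fabp4 was 2398 CPM in 12-week MASH against 2685 CPM in 12-week chow, a ratio of 0.893, and 5521 CPM in 24-week MASH against 1272 CPM in 24-week chow, a ratio of 4.34 (3.75 to 5.05). The class had 104, 155, 73 and 49 cells in these libraries. Its makeup differed between them. At a finer clustering, cells led by Igfbp5, Mmrn1, Ccl21a and Lyve1, genes of lymphatic endothelium, numbered 43 in 12-week MASH and 56 in 12-week chow, but 1 in 24-week MASH and 20 in 24-week chow. In the fine cluster led by Timp3 and Tm4sf1 Fabp4 was 3845 CPM in 12-week MASH against 3710 CPM in 12-week chow (ratio 1.04), and 5559 CPM in 24-week MASH against 2937 CPM in 24-week chow (ratio 1.89). The 24-week difference within 1 kind of cell was thus smaller than over the whole class.

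Sinusoidal endothelial-like cells as a whole had more Fabp4 and more Fabp5 in MASH at both weeks, of which the 24-week Fabp4 difference was not seen in the fine cluster not classed as mixed with T cells. Fabp4 was 1292 CPM in 12-week MASH against 995 CPM in 12-week chow (1.30, 1.26 to 1.34) and 1339 CPM in 24-week MASH against 813 CPM in 24-week chow (1.65, 1.57 to 1.73). By hashtag, Fabp4 spanned 1178 to 1557 CPM in 12-week MASH and 875 to 1073 in 12-week chow, and 1028 to 1607 in 24-week MASH and 664 to 1114 in 24-week chow, overlapping at 24 weeks. Fabp5 was 494 CPM in 12-week MASH against 249 CPM in 12-week chow (1.98, 1.88 to 2.09), and 261 CPM in 24-week MASH against 123 CPM in 24-week chow (2.12, 1.89 to 2.38). Its hashtag ranges were 487 to 567 CPM in 12-week MASH and 184 to 333 in 12-week chow, and 231 to 326 in 24-week MASH and 68.7 to 198 in 24-week chow, with no overlap at either week. Fabp5 of sinusoidal cells was also lower at 24 than at 12 weeks in both diets, with ratios of 0.528 in MASH and 0.494 in chow.

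The sinusoidal Fabp4 difference was not the same in all fine clusters, of which only 1 was not classed as mixed with T cells. In that cluster, which also had the highest level, Fabp4 was 2327 CPM in 12-week MASH against 1977 CPM in 12-week chow (1.18, 1.13 to 1.23), but 1882 CPM in 24-week MASH against 1966 CPM in 24-week chow (0.957, 0.892 to 1.03). It held 732 cells in 12-week MASH, 913 in 12-week chow, 219 in 24-week MASH and 301 in 24-week chow, where the whole class held 1770, 2567, 462 and 1119, so it was a larger part of the class in 24-week MASH than in 24-week chow. In each of the other clusters 9 of 10 T cell markers were detected beside the sinusoidal ones. In the larger of them Fabp4 was 1008 CPM in MASH against 746 CPM in chow at 12 weeks and 1054 CPM in MASH against 698 CPM in chow at 24 weeks. The smaller, with Igha and Cd3d among its leading genes, had 441 CPM in MASH against 396 CPM in chow at 12 weeks and 457 CPM in MASH against 216 CPM in chow at 24 weeks. The part of T cell RNA in these values was not tested. In the cluster not classed as mixed Fabp5 was higher in MASH at both weeks, with 915 CPM in MASH against 481 CPM in chow at 12 weeks (1.90, 1.76 to 2.05) and 347 CPM in MASH against 227 CPM in chow at 24 weeks (1.53, 1.26 to 1.85).

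**Figure D4:**
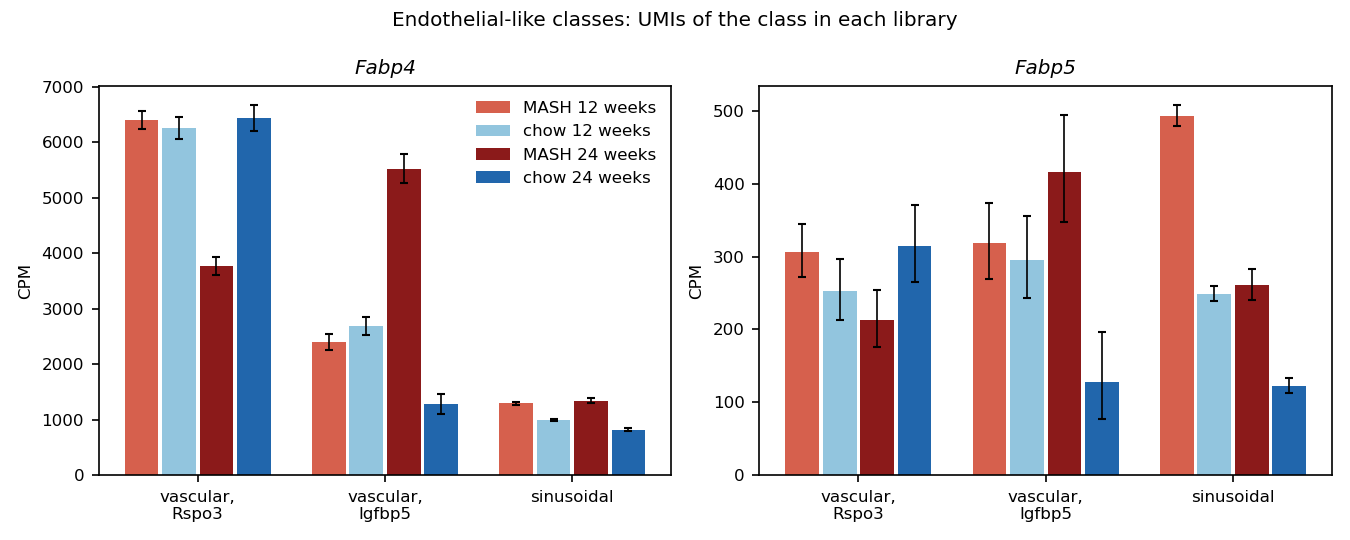
CPM (vertical axis, from 0) of Fabp4 and Fabp5 in 3 endothelial-like classes of each library, with 95% Poisson intervals. Fabp4 of Rspo3 vascular cells is lowest in 24-week MASH, at 3772 CPM, and sinusoidal Fabp5 is higher in MASH than in chow at both weeks.

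Fabp5 in Rspo3 vascular cells was 307 CPM in 12-week MASH against 253 CPM in 12-week chow (ratio 1.22) and 213 CPM in 24-week MASH against 315 CPM in 24-week chow (0.676). In Igfbp5 vascular cells it was 319 CPM in MASH against 296 CPM in chow at 12 weeks. At 24 weeks it was 416 CPM in MASH against 127 CPM in chow (3.28, 2.04 to 5.54), from 128 and 20 UMIs. The makeup of this class differed between libraries, as given above. In its fine cluster led by Timp3 and Tm4sf1, Fabp5 was 611 CPM in MASH against 412 CPM in chow at 12 weeks (1.48, 1.14 to 1.94). At 24 weeks that cluster had 423 CPM in MASH against 350 CPM in chow (1.21, 0.784 to 1.94). Of 3 members counted in Rspo3 cells, 0 were at least 2-fold higher and 1, Fabp1, lower at each week, where 3.55% and 6.01% of all genes were higher and 3.11% and 4.75% lower at 12 and 24 weeks. Of the members counted in sinusoidal cells, 1 of 4 was higher at 12 weeks (Fabp2, on 34 UMIs in MASH and 12 in chow) and 0 lower, with 3.33% of all genes higher and 2.46% lower. At 24 weeks 1 of 3 was higher (Fabp5) and 1 lower (Fabp1), with 4.77% higher and 3.94% lower. Cd36, the fatty acid translocase of the cell surface, was among the uptake genes of both kinds of endothelium. In sinusoidal cells it was 538 CPM in 12-week MASH against 117 CPM in 12-week chow (4.60) and 530 CPM in 24-week MASH against 101 CPM in 24-week chow (5.23). In Rspo3 cells it was 317 CPM in MASH against 55.0 CPM in chow at 12 weeks (5.76) and 304 CPM in MASH against 60.7 CPM in chow at 24 weeks (5.02), also at 24 weeks where Fabp4 was lower. In sinusoidal cells the lipoprotein lipase gene Lpl had ratios of 9.99 (47 UMIs in MASH, 5 in chow) and 44.2 (21 UMIs in MASH, 1 in chow). In all, 2 of 8 uptake genes at 12 weeks and 2 of 7 at 24 weeks were higher in sinusoidal cells, and in Rspo3 cells 1 of 5 was higher and 2 lower at 12 weeks and 1 of 3 higher and 1 lower at 24 weeks.

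In monocyte-like cells, which are recruited from blood and may include macrophages, 3 of the genes were higher in MASH at 12 weeks. Fabp4 was 278 CPM in MASH against 45.5 CPM in chow (6.12, 4.80 to 7.91). Fabp5 was 504 CPM in MASH against 78.9 CPM in chow (6.39, 5.32 to 7.75). Fabp7 had 95 UMIs in MASH and 0 in chow, at least 7.23-fold higher against a floor of 3 UMIs for the class. The class had 919 cells in 12-week MASH, 350 in 12-week chow, 1533 in 24-week MASH and 395 in 24-week chow, with medians of 6407, 4166, 6875 and 4572 UMIs. The ratios were smaller at 24 weeks. Fabp4 was then 69.2 CPM in MASH against 35.1 CPM in chow (1.97, 1.54 to 2.57) and Fabp5 207 CPM in MASH against 72.2 CPM in chow (2.88, 2.42 to 3.43). Fabp7 had 30 UMIs in MASH and 1 in chow (4.90, 0.814 to 199.9). T-like cells, for comparison, held Fabp5 at 21.7 and 20.4 CPM in MASH and 18.6 and 16.3 CPM in chow.

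By hashtag, the 12-week values of monocyte-like cells did not overlap: Fabp4 spanned 136 to 487 CPM in MASH and 47.0 to 55.4 in chow, and Fabp5 320 to 977 CPM in MASH and 64.6 to 116 in chow. At 24 weeks Fabp5 spanned 147 to 335 CPM in MASH and 28.3 to 97.1 in chow, and Fabp4, 39.1 to 175 in MASH and 11.4 to 83.6 in chow, with overlap for Fabp4. Of 4 members counted at 12 weeks, 3 (Fabp4, Fabp5 and Fabp7) were at least 2-fold higher and 0 lower. Of all genes, 9.3% were then higher and 1.89% lower. Fabp7 met the UMI minimum through MASH alone, with 95 UMIs in MASH and 0 in chow, so its call was not independent of that minimum. At 24 weeks 2 (Fabp5 and Fabp7) were higher and 1, Fabp1, lower, where 8.23% of all genes were higher and 2.47% lower. Fabp7 then had 30 UMIs in MASH and 1 in chow, and its interval of 0.814 to 199.9 took in 1. Slc27a1, a fatty acid transporter, had ratios of 5.48 (48 UMIs in MASH, 2 in chow) and 2.63, Fabp3, the heart type carrier, 2.36 (31 UMIs in MASH, 3 in chow) and 3.84 (47 in MASH, 2 in chow), and Hilpda, an inhibitor of lipolysis in lipid droplets, 3.08 and 3.59. Of the uptake genes, 4 of 7 and 1 of 6 were higher and 1 and 0 lower at 12 and 24 weeks. Of 11 droplet genes, 2 were higher and 2 lower at 12 weeks, and 2 higher and 0 lower at 24 weeks.

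The class was not uniform. At the finer clustering, cells led by Saa3, Fn1 and Prg4 numbered 224 in 12-week MASH and 2 in 12-week chow, and 35 in 24-week MASH and 0 in 24-week chow. C1qb, C1qc and Cd5l were also among their leading genes. They scored highest on the Kupffer cell list, with 3 of 10 markers detected. The monocyte or macrophage list came second, with 12 of 14 detected. They held Fabp4 at 739 CPM and Fabp5 at 1179 CPM in 12-week MASH, and 665 and 526 CPM in 24-week MASH. Fabp7 was 44.5 CPM and 58.1 CPM in the same cells at 12 and 24 weeks. In monocytes led by Lyz2, Ccl2 and Chil3 Fabp5 was close between the diets at 12 weeks, with 84.7 CPM in MASH against 73.8 CPM in chow (1.15), and 107 CPM in MASH against 58.5 CPM in chow (1.82) at 24 weeks. Fabp4 in these monocytes was 21.3 CPM in MASH against 9.02 CPM in chow at 12 weeks (2.36) and 16.5 CPM in MASH against 5.49 CPM in chow at 24 weeks (3.0). In monocytes led by Ace and Ear2, genes of the patrolling kind, Fabp4 was 481 CPM in MASH against 236 CPM in chow at 12 weeks (2.04). At 24 weeks it was 433 CPM in MASH against 212 CPM in chow (2.04). Fabp5 in these Ace monocytes had few UMIs. It was 54.7 CPM in MASH against 29.5 CPM in chow at 12 weeks (1.86, 0.747 to 5.23), from 19 and 7 UMIs. At 24 weeks it was 99.6 CPM in MASH against 30.3 CPM in chow (3.29, 1.58 to 7.92), from 68 and 8 UMIs. When the fine clusters led by Saa3 or C1qb were left out, a choice made after seeing the data, the monocyte-like ratios were 1.27 and 1.29 for Fabp4 and 1.05 and 1.96 for Fabp5 at 12 and 24 weeks. For Fabp4 these pooled ratios lay below those within either remaining cluster (2.36 and 3.0 in the Chil3 monocytes, 2.04 at both weeks in the Ace monocytes). The pooled Fabp5 ratio at 12 weeks also lay below both (1.15 in the Chil3 and 1.86 in the Ace monocytes). The clusters were in unequal proportion between the diets. The Ace monocytes, with the higher Fabp4 level, numbered 130 beside 545 Chil3 monocytes in 12-week MASH and 99 beside 250 in 12-week chow. At 24 weeks they numbered 191 beside 1112 in MASH and 104 beside 286 in chow.

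The C1q macrophages were led by C1qa, C1qb, C1qc, Lpl, Trem2 and Gpnmb. They scored highest on the Kupffer cell list, of which only 4 of 10 markers were detected, and carried 9 of 10 genes of the lipid-associated macrophage list, so they keep the name of their leading genes. There were 406 in 12-week MASH, 86 in 12-week chow, 695 in 24-week MASH and 12 in 24-week chow, and the 24-week chow values carry no comparison. Fabp5 was 685 CPM in 12-week MASH against 222 CPM in 12-week chow (3.08, 2.39 to 4.05). Fabp4 was 242 CPM in MASH against 131 CPM in chow (1.85, 1.32 to 2.66). Fabp7, the brain type, was 124 CPM in MASH against 10.9 CPM in chow from 350 and 3 UMIs (11.3, 3.84 to 55.1). By hashtag, Fabp7 spanned 75.5 to 160 CPM in 12-week MASH and 0 to 46.6 in 12-week chow, while the Fabp5 ranges of 244 to 1147 in MASH and 32.8 to 699 in chow overlapped. In 24-week MASH Fabp5 was 701 CPM, Fabp4 208 CPM and Fabp7 40.9 CPM, so Fabp7 was 0.331 times its 12-week level while Fabp5 stood at 1.02 times.

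Of the C1q macrophages thinned to 1000 UMIs, 21.8% in 12-week MASH and 5.48% in 12-week chow had a Fabp5 UMI, and 8.54% in MASH and 0 of 73 in chow a Fabp7 UMI. In 24-week MASH the shares were 25.4% for Fabp5 and 3.30% for Fabp7. T-like cells had thinned shares of 1.56% to 2.15% for Fabp5 and 0 to 0.0809% for Fabp7. Median depths of the macrophages were 4510, 2362 and 7679 UMIs in these 3 libraries. Of 4 members counted at 12 weeks, 2 were at least 2-fold higher (Fabp5 and Fabp7) and 1 lower (Fabp1), where 10.8% of all genes were higher and 6.9% lower. Lpl was 1392 CPM in MASH against 106 CPM in chow (13.2) and the droplet coat gene Plin2 327 CPM in MASH against 54.6 CPM in chow (5.99) in the same comparison; both were picked after their values were seen. Of the uptake genes 3 of 6 were higher and 1 lower, and of the droplet genes 3 of 9 higher and 3 lower.

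**Figure D5:**
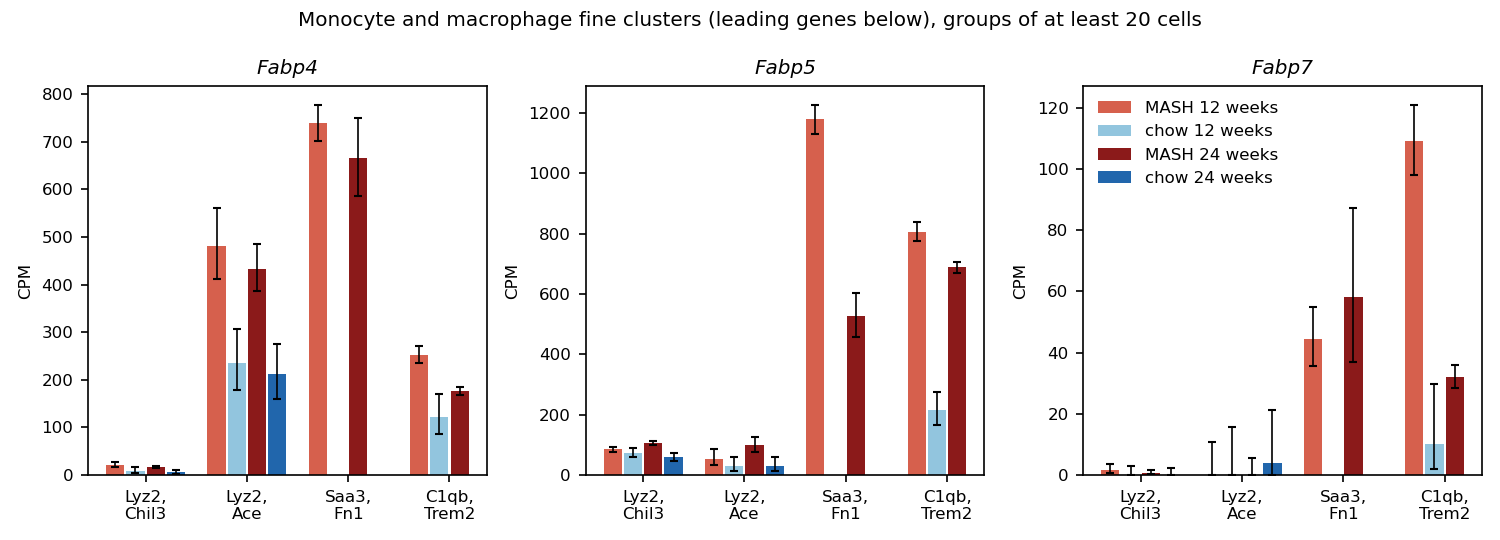
CPM (vertical axis, from 0) of Fabp4, Fabp5 and Fabp7 in 4 fine clusters of monocytes and macrophages, named on the horizontal axis by leading genes, with 95% Poisson intervals; libraries with under 20 cells of a cluster are left out. Fabp5 and Fabp7 are high in the Saa3 and C1qb clusters and Fabp4 in the Ace and Saa3 clusters, and the Saa3 cluster has bars for MASH only.

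Fabp5 was highest of all in the migratory dendritic-like cells led by Fscn1 and Ccr7, at 1637 CPM in 12-week MASH against 2358 CPM in 12-week chow (0.694, 0.607 to 0.796) from 154 and 22 cells, and 2284 CPM in 92 cells of 24-week MASH. In 12-week MASH and chow 77.3% of these cells had a Fabp5 UMI, and in 24-week MASH 84.8%. The other dendritic-like cells, led by Alox5ap, held 27.6 CPM in 12-week MASH and 23.9 CPM in 12-week chow, and 31.7 CPM in 24-week MASH and 25.9 CPM in 24-week chow. Fabp5 thus lay far apart between the 2 kinds of dendritic-like cells in every library where both were counted. Cholangiocyte-like cells led by Spp1, which line bile ducts, had 195 CPM of Fabp5 in 12-week MASH against 116 CPM in 12-week chow (1.69) and 270 CPM in 24-week MASH. Stellate-like cells may be stellate cells or fibroblasts, since a single marker list covered both, and were led by Dcn, C3, Saa3 and Col3a1. Their Fabp4 was 115 CPM in 12-week MASH against 41.7 CPM in 12-week chow (2.75, 1.70 to 4.77). At 24 weeks it was 94.5 CPM in MASH against 37.0 CPM in chow (2.56, 1.08 to 7.97). These cells gave only 17 Fabp4 UMIs in 12-week chow and 5, from 23 cells, in 24-week chow. Their Fabp5 was 253 CPM in MASH against 187 CPM in chow at 12 weeks (1.35) and 261 CPM in MASH against 288 CPM in chow at 24 weeks, the last from 23 cells. The few-UMI barcodes of 12-week MASH held Fabp4 at 190 CPM, above the stellate-like level.

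Across 71 sums of class and library, the genes most like each member were found among 5796 genes by Pearson's r of log2(CPM + 10), as a description, since the sums share libraries and depths. Fabp1 was nearest to Serpina1a (r = 0.968), Otc, Uox, Akr1c6 and Hpd, and Fabp2 to Gm4952 (r = 0.981), Agxt2, Acsm1, Bbox1 and Ppara. Fabp4 followed Stab1 (r = 0.946), Eng, Cyyr1, Ptprb and Bvht. Fabp5 had weaker likenesses, with Spred1 first at r = 0.761 and then Anxa3, Cxcl16, Fnbp1l and Lima1. Fabp7 was nearest to Cd5l (r = 0.911), Folr2, Vsig4, Mmp12 and Fcna.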

How the data were processed

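The authors deposited raw UMI counts per gene and barcode, made with Cell Ranger (version 4 for 12-week MASH, 5.0.1 for the other libraries), per the file headers. Builds named in the submitters' processing notes are mm10 and GRCh38. The rule for calling cells is not given in these sources. The 12-week MASH matrix held 737280 columns that its 19014 listed barcodes did not match, so the 19091 columns with at least 500 UMIs were used there. Counts of 17225, 18436, 19953 and 27291 cells (12-week MASH and chow, 24-week MASH and chow) passed the filter. Doublets were called per library with Scrublet in scanpy 1.11.5, removing 12.1%, 12.7%, 12.4% and 21.8%; in 24-week chow the automatic threshold marked 25.8%, so the expected rate of 0.8% per 1000 cells was used.

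Cells were clustered on 2000 variable genes without the 5 genes or the listed genes, with 30 principal components, 15 neighbours (scikit-learn 1.9.0) and Leiden at resolution 1 (leidenalg 0.10.2, igraph 0.11.9), and at 0.5 and 2 as alternatives. Clusters were named from 17 marker sets, giving 19 classes. UMIs were summed per class and library, and CPM had exact Poisson, ratios exact conditional binomial and shares exact Clopper-Pearson 95% intervals (scipy 1.17.1, numpy 2.4.6, pandas 2.3.3, matplotlib 3.10.9, Python 3.11.15). A gene was counted as higher or lower at 2-fold, if both libraries together had 20 UMIs. The 2-fold rule and the ratio intervals were tested on simulated Poisson counts, which hold counting error only. The 5 genes are named in every class that matters. Of a list, up to 5 genes past 2-fold in 1 direction at both weeks were named, and for likeness the 5 highest r. The 5 genes and the lists were chosen with earlier results of these data known. Some listed genes are not reported here.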

Additional observations from a re-analysis of the deposited data

Results flagged for a closer look

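In hepatocyte-like cells the Fabp1 ratio of MASH over chow lay on opposite sides of 1 at the 2 weeks, at 1.55 at 12 weeks and 0.910 at 24 weeks. In vascular endothelial-like cells led by Igfbp5 the Fabp4 ratio was 0.893 at 12 weeks and 4.34 at 24 weeks. With 1 library per group, neither difference between weeks was tested. The makeup of the Igfbp5 class differed between libraries, and in its fine cluster led by Timp3 and Tm4sf1 the Fabp4 ratios were 1.04 and 1.89.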

How the results depend on the processing

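Of 41 ratios of MASH over chow, 322 values under other settings were computed, of which 256 stayed inside the counting interval of the reported ratio and 66 did not. Of 134 values for the 17 ratios past 2-fold, 126 were still past 2-fold, and 0 changed direction. With no doublet removal, Fabp1 in hepatocyte-like cells had 1.45 and 1.08 (12 and 24 weeks), Fabp2 4.13 and Fabp5 0.984 at 24 weeks, and Fabp4 in Rspo3 vascular cells 0.975 at 12 weeks. With a stricter cell filter, Fabp1 had 0.926 at 24 weeks and Fabp5 0.349 and 0.612. Scaling by the median of ratios gave 1.46 and 0.781 for Fabp1, 3.04 for Fabp2 and 0.639 for Fabp5 at 24 weeks, and 1.08 for Fabp4 in Rspo3 cells at 12 weeks. Without hepatocyte and mitochondrial genes in the total, Fabp1 had 1.59 at 12 weeks. Means over cells gave 1.62 and 0.940 for Fabp1 and 0.612 for Fabp5 at 12 weeks, and single-hashtag cells 1.58 and 1.10 for Fabp1. Resolutions of 0.5 and 2 gave 0.719 and 0.620 for Fabp4 in Rspo3 cells at 24 weeks. At resolution 0.5 Fabp7 in monocyte-like cells had 27.9 and 33.2, but for another set of cells. There the class was a cluster of 4349 cells, with C1qb, C1qc and C1qa among its leading genes and no separate C1q class. At resolution 1 it held 3197 cells. The causes of the shifts under other settings were not tested. Without the fine clusters led by Saa3 or C1qb, Fabp7 in monocyte-like cells gave no fold at 12 weeks, with 7 UMIs in MASH and 0 in chow. Fewer UMIs needed per gene raised the share of all genes past 2-fold in either direction. With 5 UMIs it was 19.9% and 20.2% in hepatocyte-like, 19.3% and 19.2% in monocyte-like and 16.1% and 20% in Rspo3 cells; with 50 it was 7.14% and 6.58% in monocyte-like and 3.47% and 6.59% in Rspo3 cells. Thinned to 500 UMIs, the share of hepatocyte-like cells with Fabp2 was 38.7% in MASH and 10.8% in chow at 12 weeks and 33.3% in MASH and 9.94% in chow at 24 weeks. For Fabp5 it was 14.4% in MASH and 17.7% in chow, and 8.01% in MASH and 11.2% in chow. For Fabp4 in Rspo3 cells it was 87.7% in MASH and 91.2% in chow, and 79.2% in MASH and 89.2% in chow. No paired analysis was possible because each group has 1 library. Fabp7 had only 8 and 2 UMIs in the chow libraries, which also held few C1q macrophages (86 and 12); depth and cell number were not told apart.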
